A study of Mus musculus with 21 samples.

Results

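Dppa2, Dppa3, Dppa4 and Dppa5a are the developmental pluripotency-associated genes taken here: the 4 rows of the deposited expression values, out of 16443 genes, that carry those symbols. They were followed across 21 poly(A) RNA sequencing libraries of 2TS22C, embryonic stem cells of the mouse made so that their supply of SOX2 can be shut off with doxycycline. The untransduced line (NTC, genotype WT on its labels) served as the control. The rescued lines carried a lentivirus for SOX2, for SOX17FNV (FNV below), a variant engineered from SOX17, an endoderm factor, or for miniSOX, described by no more than its name, each with its endogenous SOX2 silenced and doxycycline listed as the treatment. No doxycycline is listed for NTC, so rescue and doxycycline cannot be told apart in any comparison with NTC. Every line was grown in serum with LIF (SL) and in the same medium with 2i, a pair of inhibitors of MEK and GSK3. The 8 groups of line by medium hold 3 NTC, 4 SOX2, 4 FNV and 2 miniSOX libraries in 2i, and 2 libraries of each line in SL. No label says whether a rescued line is a single clone.

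DPPA2 and DPPA4 are SAP-domain proteins encoded side by side that bind chromatin as a pair, keep developmental promoters poised and switch on a set of germline and early-embryo genes. DPPA3, also called STELLA or PGC7, is a mark of naive stem cells, oocytes and primordial germ cells that binds UHRF1 and holds back maintenance DNA methylation. DPPA5A, also called ESG1, is a small KH-domain RNA-binding protein that is abundant in embryonic stem cells. All are used as marks of pluripotency.

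In the GENCODE M21 annotation of mm10, Dppa4 (ENSMUSG00000058550, chromosome 16, 48283733 to 48294237) lies directly before Dppa2 (ENSMUSG00000072419, chromosome 16, 48303908 to 48319723) on the plus strand, with 9670 bases between them. Dppa3 (ENSMUSG00000046323) lies on chromosome 6, 122626410 to 122630272, plus strand, among Apobec1, Gdf3 and Nanog. Dppa5a (ENSMUSG00000060461) lies on chromosome 9, 78367052 to 78368177, minus strand. Their coding sequences hold 301 codons (Dppa2), 150 codons (Dppa3), 296 codons (Dppa4) and 118 codons (Dppa5a), the stop codon not counted.

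Copies of these genes, most of them processed pseudogenes, lie elsewhere in the mouse genome, which bears on how reads could be assigned to them. Of the 50-base windows of each gene's transcripts, 29.1% of Dppa2, 16.5% of Dppa3, 31.3% of Dppa4 and 38.6% of Dppa5a also occur unchanged in an annotated transcript of another gene. The other genes number 7 for Dppa2, 3 for Dppa3, 2 for Dppa4 and 9 for Dppa5a, and of all these only Pigp, which shares windows with Dppa5a, has a row of its own, at a mean value of 265.7. The sources used here do not say how RSEM divided such reads, so each member's level is uncertain to that extent. Dppa3-ps (chromosome X, 37625647 to 37626097, minus strand) matches 98.2% of 448 aligned coding bases of Dppa3. Dppa5b (chromosome 9, 78245550 to 78246135, plus strand), an unprocessed pseudogene, matches 97.0% of 297 aligned coding bases of Dppa5a. The stretches below, read from the reference, show how little separates the member from its copy. Dppa3 is shown from base 3 to base 92 of its coding sequence and Dppa5a from base 1 to base 90. Capitals mark the letters at which the copy differs, 2 in the first pair and 3 in the second.
Dppa3: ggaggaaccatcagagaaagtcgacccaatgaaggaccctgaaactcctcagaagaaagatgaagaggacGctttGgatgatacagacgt
Dppa3-ps: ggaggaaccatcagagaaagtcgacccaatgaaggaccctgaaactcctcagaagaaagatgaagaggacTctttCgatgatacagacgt
Dppa5a: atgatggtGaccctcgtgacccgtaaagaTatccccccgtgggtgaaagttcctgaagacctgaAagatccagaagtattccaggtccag
Dppa5b: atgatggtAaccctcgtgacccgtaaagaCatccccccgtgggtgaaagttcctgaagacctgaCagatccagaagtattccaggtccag

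The deposited values are whole numbers that had been made alike between libraries, so that after sorting, any pair of libraries agrees to within 3 at every rank, and the depth of each library is unknown. Genes ranked next to each other share a value, to within 5, in runs of 10, and a gene near the top of the range can only move from step to step. For Dppa5a those steps are wide: from 19697 the next values down are 18497, 16422, 14818 and 13688. The libraries came in 2 deposited sets, called waves below: the first holds 12 libraries, and the second holds all 4 miniSOX libraries and 5 libraries in 2i that carry p21 or p31 in their names, a code the labels do not explain. The fit included a term for the wave, which carries every contrast of miniSOX with another line. In SL that term rests on the 2i libraries. The second wave holds 1 NTC library, p31 in 2i, so any value against NTC within that wave has 1 library on the NTC side, and its p assumes that this library varies like the other groups. Across the 2i libraries the second wave was higher in Dppa2 by 0.56 on the log2 scale (adjusted p = 0.0019) and lower in Dppa5a (log2 change -0.59, adjusted p = 0.012), and 37.7% of all genes changed with it. Titles call the 5 libraries with p21 or p31 biological replicates (biol_rep), whereas first-wave and miniSOX titles say only rep. Whether replicates titled only rep were grown separately is not said, so they may be repeats of 1 biological sample. The p-values therefore rest on the spread among these libraries alone, which may be technical. In 2i, Sox2 stood at 1310 to 2697 in NTC, 939 to 1509 in SOX2, 19 to 43 in FNV and 47 to 60 in miniSOX libraries. In SL it stood at 533 and 843 in NTC, 921 and 1389 in SOX2, 33 and 49 in FNV and 48 and 55 in miniSOX. In the SOX2 line the delivered and the endogenous transcript are counted together. All 7 embryonic stem cell markers of a fixed list were measured, with none at 0 throughout a group. Their sum ran from 39245 to 58925 among NTC libraries in 2i. In SL it ran from 30604 to 30727 in miniSOX and 53349 to 56610 in FNV libraries, with NTC and SOX2 between them.

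The mean deposited value over all 21 libraries was 16408 for Dppa5a, 1204 for Dppa4, 919 for Dppa2 and 762 for Dppa3. No source used here says whether these values already allow for transcript length. Divided by the length of the longest transcript in kilobases, the means were 26507 for Dppa5a, 914 for Dppa3, 814 for Dppa4 and 376 for Dppa2. Dppa5a led on both scales, while the order of the other 3 differed between them. By deposited value, 24 to 264 genes lay above Dppa5a in any library. Between groups, the mean deposited value spanned 7.38-fold for Dppa3, 3.23-fold for Dppa4, 2.05-fold for Dppa2 and 1.94-fold for Dppa5a. By mean value, Dppa3 was highest in FNV cells in 2i and Dppa5a in FNV cells in SL. Dppa4 and Dppa2 had their highest means in SL, in the miniSOX line and then in FNV. Those 2 groups come from different waves, and with the wave term the miniSOX to FNV change in SL was -0.09 for Dppa4 (adjusted p = 0.82) and -0.56 for Dppa2 (adjusted p = 0.11), so which line was higher is not settled.

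**Figure D1:**
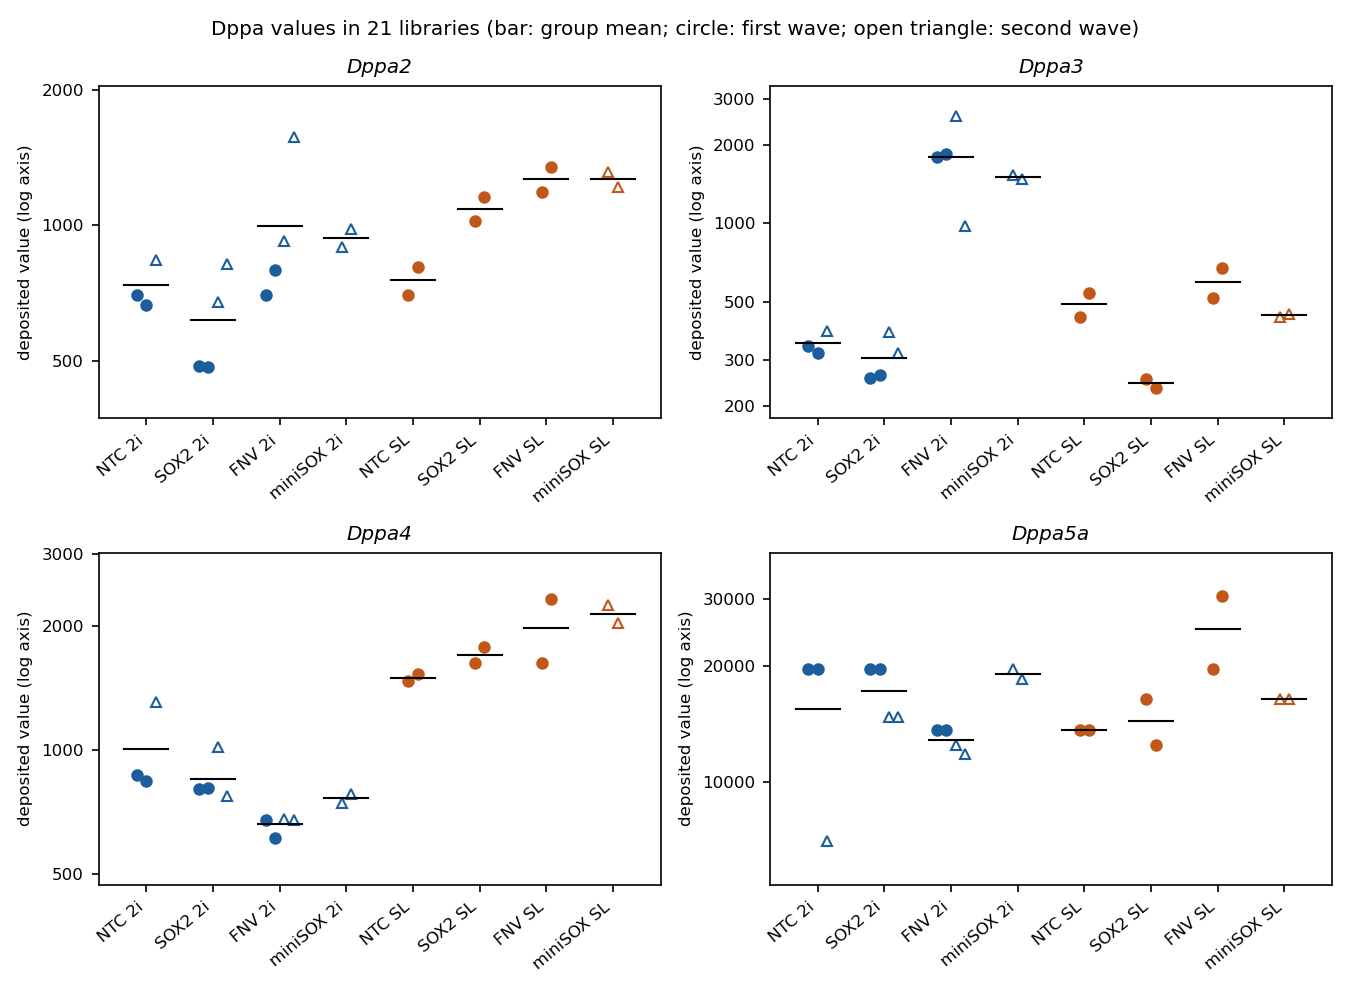
Deposited value of each member (log axis) in the 21 libraries, by line and medium, with circles for the first wave, open triangles for the second and a bar at the group mean. Dppa3 stood at 976 to 2579 in FNV and 1479 to 1531 in miniSOX cells in 2i and at 673 or less in every other library, while Dppa4 was lower in 2i than in SL in each line.

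Dppa3 was several-fold higher in the FNV and miniSOX lines than in NTC or SOX2 cells, and this was seen in 2i. The NTC libraries in 2i stood at 337, 317 and 387, and the SOX2 libraries at 255, 262, 382 (p21) and 317 (p31). FNV libraries in 2i stood at 1792, 1842, 2579 (p21) and 976 (p31). The 2 miniSOX libraries stood at 1531 and 1479. Every FNV and miniSOX library in 2i lay above every NTC and SOX2 library, and the p31 library of FNV was the lowest of the 6.

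In the fit across all genes, Dppa3 in 2i rose 4.82-fold in FNV against NTC, a log2 change of 2.27 (SE 0.24, adjusted p = 3.7e-06), and 4.06-fold in miniSOX against NTC (2.02, SE 0.31, adjusted p = 0.00025). Against SOX2 cells the log2 change was 2.50 in FNV (SE 0.22) and 2.25 in miniSOX (SE 0.28). Within the first wave alone the change of FNV against NTC was 2.47, and within the second it was 2.03 with an adjusted p of 0.043. For miniSOX against NTC the value within the second wave was 1.96 (adjusted p = 0.049). Both second-wave values rest on the single p31 library of NTC, at 387, and carry no spread of NTC. These 4 changes of Dppa3 passed in every alternative run, those with 1 NTC library included. The SOX2 line did not pass against NTC in 2i, at a log2 change of -0.23 (95% interval -0.74 to 0.28). The difference between miniSOX and FNV was -0.25 (95% interval -0.86 to 0.36, adjusted p = 0.67), but without the p31 library of FNV it was -0.70 for Dppa3 with an adjusted p of 0.0083.

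The share of all genes that passed gives the background for these counts. In 2i, 2 of the 4 members passed in FNV against NTC, where 39.7% of all genes did. In miniSOX against NTC 3 members passed, against 27.7% of all genes, and in FNV against SOX2 3 members passed, against 25.2%. In miniSOX against SOX2 1 member passed, Dppa3, against 14.9% of all genes, and in miniSOX against FNV 1 passed, Dppa5a, against 7.66%. In SOX2 against NTC limma called 0 members, against 28.7% of all genes, and 1 member, Dppa2, had an unadjusted p under 0.05. With 4 members, none of these counts sets the members apart from the table. Over all 22 comparisons 30 of 88 member tests passed (34.1%), against 23.3% of the tests of all genes. Averaging the first-wave replicates into 1 sample per group ended 19 of the 30 calls and leaving out the wave term ended 13, while the pseudocounts and the absence of a filter ended 0.

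Summed markers of other cell types also varied between the lines in 2i. The summed value of 8 trophectoderm markers ran from 5232 to 7345 in FNV, 2577 to 2636 in miniSOX, 1223 to 2736 in NTC and 823 to 1415 in SOX2 libraries. The keratins Krt8 and Krt18 held most of the FNV sum, at 2659 to 3770 and 1110 to 2743. In NTC libraries these keratins stood at 355 to 958 and 324 to 585. Eomes went the other way, at 4 to 26 in FNV and 26 to 83 in NTC libraries. For 7 measured of 10 listed primitive and visceral endoderm markers the sum ran from 7403 to 8029 in FNV, 5262 to 5543 in miniSOX, 4169 to 5821 in NTC and 2114 to 4344 in SOX2 libraries. Gata4, Sox7 and Foxa2 were not analysed here, and Ttr was at 0 in both miniSOX libraries. No other measured marker of these 2 lists was at 0 throughout a group in 2i. Of these 7 markers, 3 rose and 1 fell in FNV against NTC in 2i (39.7% of all genes passed). Dab2, an endocytic adaptor, held most of the FNV sum, at 3897 to 4972 there, 2384 and 2503 in miniSOX, 240 to 398 in NTC and 549 to 1379 in SOX2 libraries. Col4a1, a basement membrane collagen, went the other way, with 84 to 694 in FNV against 1475 to 2954 in NTC libraries (log2 change -3.18, adjusted p = 6.9e-05), and Lama1, a laminin chain, had a log2 change of -0.09 (adjusted p = 0.67), with -0.26 within the first wave (adjusted p = 0.028). Within the second wave, against 1 NTC library, Col4a1 did not pass (-2.38, adjusted p = 0.065). Gata6, the endoderm factor on that list, stood at 251 to 408 in FNV, 157 and 165 in miniSOX, 16 to 76 in NTC and 40 to 94 in SOX2 libraries. For 9 of 10 listed fibroblast markers the sum stayed between 123 and 292 in every 2i library. For 6 of 7 listed formative and primed markers it ran from 1552 to 2162 in FNV, 1447 to 1500 in miniSOX, 1006 to 2208 in NTC and 791 to 1804 in SOX2 libraries, with Fgf5 at 0 throughout in FNV, miniSOX and NTC cells. Dnmt3b held most of that sum, at 1483 to 2092 in FNV and 634 to 1716 in NTC libraries. Otx2 and Zic2 went the other way, at 23 to 56 and 7 to 17 in FNV libraries. In NTC libraries they stood at 124 to 144 and 214 to 316. The sums also differed between the lines in SL. For trophectoderm they ran from 15057 to 15098 in miniSOX and 8915 to 9025 in NTC libraries. FNV and SOX2 libraries held 2413 to 2433 and 1606 to 2279. Cdx2, on that list, stood at 0 to 2 in every SL library. Fibroblast sums ran from 1588 to 1798 in miniSOX and 938 to 965 in FNV libraries. NTC and SOX2 libraries held 356 to 369 and 183 to 211. The part of all these markers in the results of the members was not tested. In such bulk libraries more cells that express a gene and more RNA per cell cannot be told apart.

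In SL the order of the lines in Dppa3 was different. NTC libraries stood at 437 and 540, SOX2 at 254 and 233, FNV at 518 and 673, and miniSOX at 437 and 449. SOX2 cells held the lowest values, with no overlap with any other line in SL, while the FNV and NTC ranges overlapped. Dppa3 was higher in FNV than in SOX2 cells in SL (log2 change 1.28, SE 0.31, adjusted p = 0.0094), but without the second FNV library the log2 change was 1.09 (adjusted p = 0.088) and without the second SOX2 library it was 1.21 (adjusted p = 0.057). It was lower in SOX2 than in NTC cells (log2 change -0.99, adjusted p = 0.043), a call that ended when any of the 4 SL libraries of these lines was left out, at -0.84 to -1.15 with adjusted p from 0.096 to 0.21. For FNV against NTC in SL the log2 change was 0.28 (95% interval -0.38 to 0.94), and for miniSOX against NTC it was -0.28 (95% interval -1.06 to 0.50). The latter comes from different waves and has no value within a wave.

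In SL, 1 member passed in SOX2 against NTC (15% of all genes did), 2 in FNV against NTC (30%) and 1 in FNV against SOX2 (21.4%). Limma called 0 members in miniSOX against NTC (19.6% of all genes), against SOX2 (21.6%) and against FNV (15.2%). In each of these 3 comparisons 1 member had an unadjusted p under 0.05: Dppa5a against NTC and SOX2, and Dppa2 against FNV.

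Comparing media within a line, Dppa3 rose in 2i against SL in the FNV line (log2 change 1.45, SE 0.28, adjusted p = 0.00087) and in the miniSOX line (1.76, SE 0.31, adjusted p = 0.00051). Within the first wave the FNV value was 1.62. The FNV call was lost when the first-wave replicates were averaged into 1 sample (1.38, adjusted p = 0.079) and when only the libraries of the FNV groups were fitted (1.62, adjusted p = 0.060). The NTC line did not pass (log2 change -0.54, 95% interval -1.16 to 0.08), though within the first wave its change of -0.57 did (adjusted p = 0.011). The SOX2 line did not pass either (0.23, 95% interval -0.38 to 0.84).

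The dependence on the medium was tested directly as the line difference in 2i minus that in SL. It was 1.99 for FNV against NTC (SE 0.39, adjusted p = 0.0018, 2.19 within the first wave) and 2.30 for miniSOX against NTC (SE 0.42, adjusted p = 0.0028), so the rise of Dppa3 in these lines was larger in 2i. Averaging the first-wave replicates ended both calls for Dppa3, at 1.91 (adjusted p = 0.12) and 2.29 (adjusted p = 0.094). Against SOX2 it was 1.22 for FNV (adjusted p = 0.034) and 1.54 for miniSOX (adjusted p = 0.029). Leaving out any first-wave library of FNV or SOX2 in either medium ended the call for FNV against SOX2, with values of 1.03 to 1.41 and adjusted p from 0.053 to 0.13. For miniSOX against SOX2 the call ended without any 1 of the 4 miniSOX libraries or any 1 of the 4 first-wave SOX2 libraries, with values of 1.45 to 1.60 and adjusted p from 0.061 to 0.090. Among all genes, 25.8% passed for FNV against NTC, 13.7% for miniSOX against NTC, 20.8% for FNV against SOX2 and 11.9% for miniSOX against SOX2. The members that passed these differences numbered 2, 2, 2 and 1. For miniSOX against FNV limma called 0 members (11.9% of all genes), and 1, Dppa5a, had an unadjusted p under 0.05. Sox17, whose value may count the delivered transcript, also differed between media in the FNV and miniSOX lines. FNV libraries stood at 1792 to 3301 in 2i and at 13693 and 30391 in SL (log2 change -2.56, adjusted p = 4.1e-05). The miniSOX libraries averaged 1883 in 2i and 4158.5 in SL. In these lines the medium and the level of Sox17 cannot be told apart.

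Ordered by group mean, Dppa3 ran from FNV in 2i (1797 ± 655, SD, n = 4) and miniSOX in 2i (1505 ± 36.8, n = 2), whose ranges overlapped, to FNV (595.5 ± 110, n = 2), NTC (488.5 ± 72.8, n = 2) and miniSOX cells (443 ± 8.49, n = 2) in SL, each overlapping its neighbour. NTC cells in 2i (347 ± 36.1, n = 3) and SOX2 cells in 2i (304 ± 58.9, n = 4) followed, and overlapped each other. SOX2 cells in SL were lowest at 243.5 ± 14.8 (n = 2), with their higher library at 254 just under the lowest SOX2 library in 2i at 255.

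**Figure D2:**
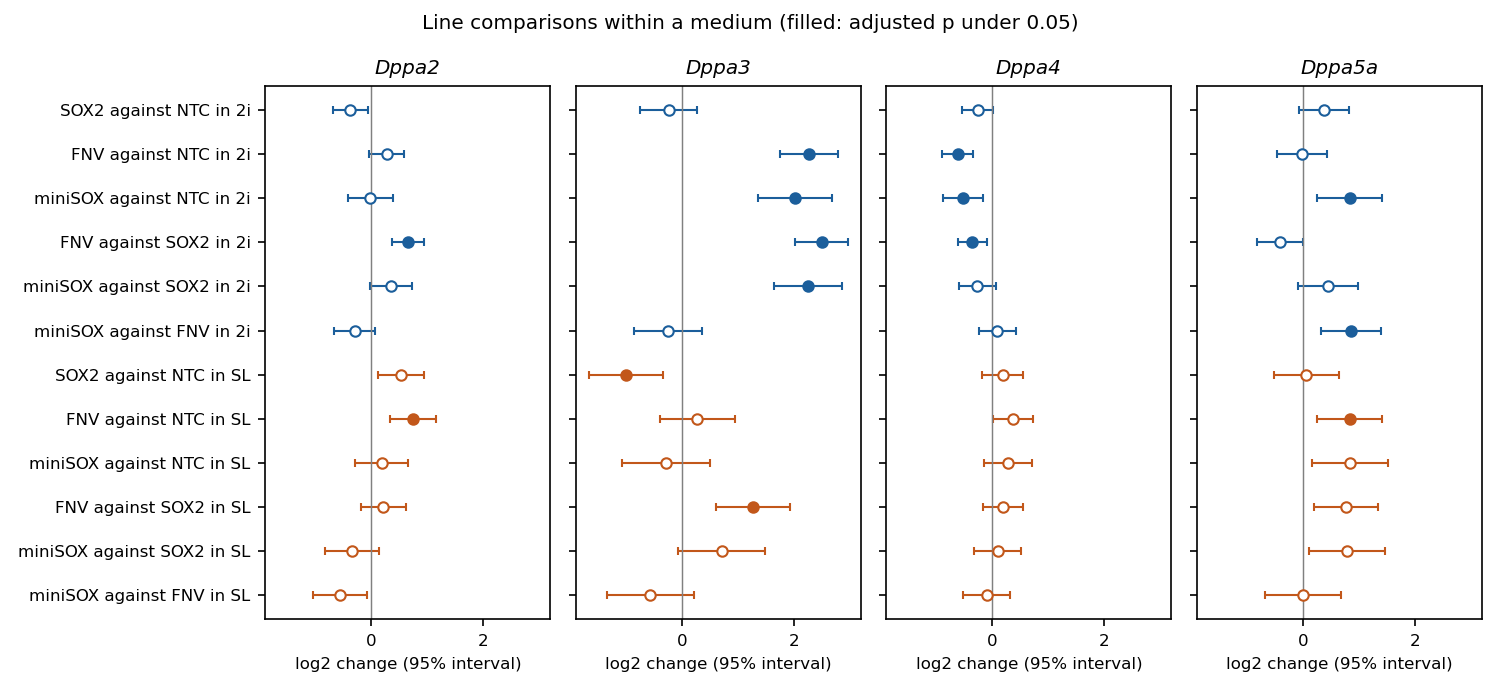
Log2 change of each member in the 12 comparisons of lines within a medium (blue, 2i; orange, SL), with 95% intervals and filled points where the adjusted p was under 0.05. For Dppa3 the 4 comparisons of FNV or miniSOX with NTC or SOX2 in 2i lie between 2.02 and 2.50, whereas the largest Dppa4 change in size among these comparisons is -0.61.

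Dppa3 lies in a cluster of genes active in naive stem cells and germ cells, and its neighbours did not follow it as a block. Of 7 measured neighbours of 8 listed, 3 rose and 1 fell in FNV against NTC in 2i (39.7% of all genes passed), with a median log2 change of 0.73 against -0.01 over all genes. That median counts C3ar1, whose change of 1.10 rests on the p31 library of FNV, at 32. C3ar1 was at 0 in every other NTC and FNV library in 2i. Apobec1, which encodes an RNA-editing cytidine deaminase, starts 23.966 kb from Dppa3. It stood at 161, 140 and 65 (p31) in NTC, and at 469, 477, 492 (p21) and 378 (p31) in FNV libraries (log2 change 2.01, adjusted p = 9.8e-06). In miniSOX libraries Apobec1 stood at 586 and 525 (log2 change against NTC 2.38, adjusted p = 5.5e-05). In SL Apobec1 stood at 744 and 741 in the FNV line, where Dppa3 stood at 518 and 673, and its log2 change in 2i against SL was -0.63 there (adjusted p = 0.084). In the miniSOX line Apobec1 rose in 2i against SL, by 1.40 on the log2 scale (adjusted p = 0.0025).

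The other genes of the cluster differed in size and direction. Foxj2, a forkhead factor, rose by 1.48 on the log2 scale (adjusted p = 0.0012), with 0.76 within the second wave (adjusted p = 0.28). Necap1, which encodes an adaptor of clathrin-coated vesicles and starts 248.064 kb from Dppa3, stood at 1309, 1347 and 1025 (p31) in NTC and at 2190, 2160, 2126 (p21) and 1380 (p31) in FNV libraries, with no overlap (log2 change 0.73, adjusted p = 8.4e-05, and 0.74 within the second wave, adjusted p = 0.090). Slc2a3, which encodes the glucose transporter GLUT3, fell (log2 change -1.22, adjusted p = 0.0089) from 76006, 76006 and 30387 (p31) in NTC to 40741, 25019, 22912 (p21) and 8734 (p31) in FNV libraries, and 76006 is the highest value in the deposited data. SOX2 libraries in 2i, where Dppa3 did not pass, lay above every NTC library in Necap1 (1578 to 2268), Foxj2 (139 to 191) and Apobec1 (185 to 279). Their Slc2a3 values ran from 25019 to 76006. Values above NTC in those 3 genes were therefore also seen without high Dppa3. The SOX2 and FNV ranges overlapped in Necap1 and in Foxj2 (127 to 274 in FNV). For Apobec1, every FNV and miniSOX library in 2i lay above every SOX2 library. Gdf3, a TGF-beta ligand that starts 16.323 kb from Dppa3, had a log2 change of 0.12 (adjusted p = 0.35), and Nanog, the naive-state homeobox factor 81.079 kb away, had one of 0.13 (adjusted p = 0.43). These 2 genes and the miniSOX values of this cluster were singled out after their values were seen. In miniSOX against NTC, Gdf3 (0.41, adjusted p = 0.024) and Nanog (0.53, adjusted p = 0.018) passed, but without the p31 library of NTC they did not (Gdf3 0.40, adjusted p = 0.075, and Nanog 0.28, adjusted p = 0.20). Gdf3 also fell short without the second miniSOX library (0.32, adjusted p = 0.18), and Nanog without the first (0.59, adjusted p = 0.052) or the second (0.48, adjusted p = 0.11).

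**Figure D3:**
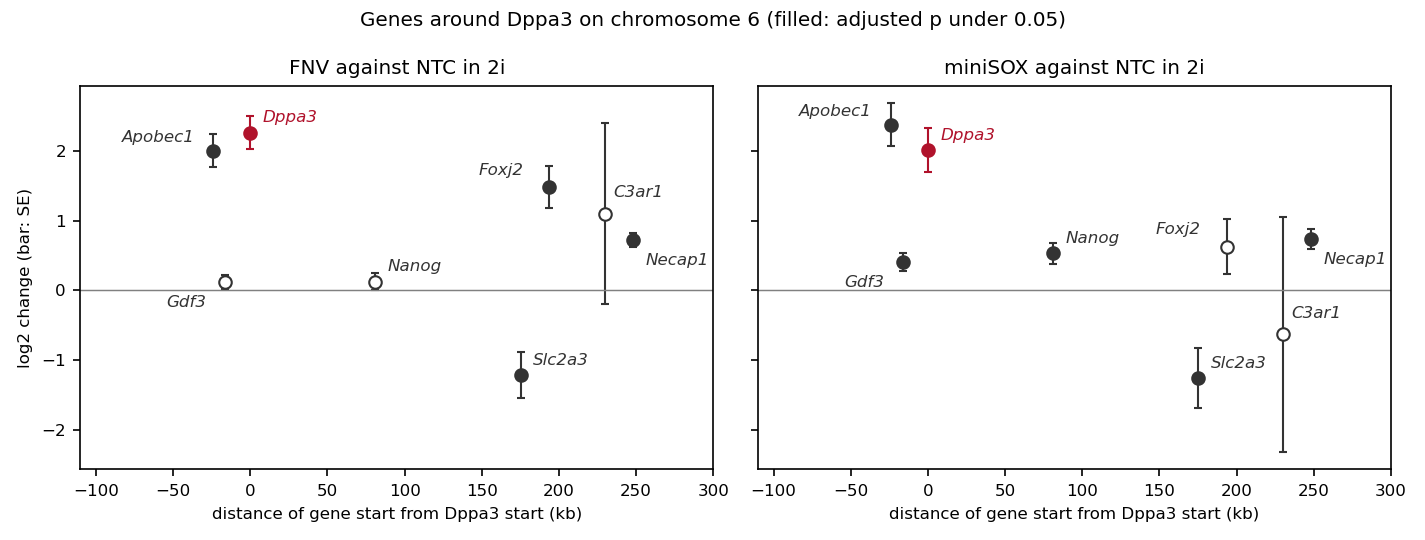
Log2 change (bar: SE) of Dppa3 and 7 neighbouring genes in 2i, against the distance of each gene's start from that of Dppa3 in kb, for FNV and for miniSOX against NTC. Apobec1 and Dppa3 lie at 2.01 and 2.27 in the left panel, Gdf3, which starts between them, lies at 0.12, and Slc2a3 lies at -1.22. The left point of C3ar1 rests on the p31 library of FNV, at 32.

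DPPA3 acts on DNA methylation through UHRF1, and 10 genes of that machinery were listed and measured. In FNV against NTC in 2i, 4 rose and 2 fell, where 39.7% of all genes passed, with a median log2 change of 0.19. Uhrf1, the reader that brings DNMT1 to replicated DNA, rose slightly, from 4524 to 4826 in NTC to 5573 to 6245 in FNV libraries (log2 change 0.33, adjusted p = 0.00063). SOX2 libraries in 2i, where Dppa3 did not pass against NTC, also lay above the NTC range of Uhrf1, at 5395 to 5573. Dnmt3b, a de novo methyltransferase, rose by 0.86 on the log2 scale (adjusted p = 0.0090), but its p31 library of NTC stood at 1716 beside 713 and 634, and within the second wave the change was 0.04 (adjusted p = 0.94). Of the 3 oxidising enzymes on the list, Tet2 fell by 0.67 on the log2 scale (adjusted p = 0.0070) and Tet3 by 1.87 (adjusted p = 2.8e-05). In 2i, Tet3 stood at 187 to 732 in NTC, 84 to 292 in SOX2 and 57 to 152 in FNV libraries. Tet1, named after its values were seen, had a log2 change of -0.02 (adjusted p = 0.93), but without the p31 library of NTC it passed (-0.33, adjusted p = 0.047), as it did within the first wave (-0.31, adjusted p = 0.029). For Tet2 the change within the second wave was -0.52 (adjusted p = 0.41).

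Of 12 measured primordial germ cell genes of 13 listed, a cell type of which DPPA3 is a classical marker, 1 rose and 7 fell in FNV against NTC in 2i (39.7% of all genes passed), with a median log2 change of -0.83. Prdm1, the repressor that starts germ cell specification, fell from 162 to 217 in NTC to 49 to 99 in FNV libraries (log2 change -1.56, adjusted p = 7.0e-06). Prdm14, its partner in that step, fell by 0.75 on the log2 scale (adjusted p = 8.9e-05). Ifitm1 and Ifitm3, membrane proteins that mark early germ cells, fell by 5.24 (adjusted p = 2.5e-11) and by 0.90 (adjusted p = 0.0041). Without the p31 library of NTC the change of Ifitm3 was -0.53 (adjusted p = 0.058). The gene that rose was Ddx4 (log2 change 0.42, adjusted p = 0.0019), and Dazl and Tfap2c did not pass. SOX2 libraries in 2i, where Dppa3 did not pass, also lay below NTC in Prdm1 (97 to 124) and Ifitm1 (138 to 319, NTC 726 to 855). Their Prdm14 (385 to 492) and Ifitm3 (290 to 470) overlapped NTC. In miniSOX against NTC, where Dppa3 rose too, 1 of the germ cell genes rose and 5 fell (27.7% of all genes passed).

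Over the 8 group means, the genes whose pattern lay closest to that of Dppa3 were Baiap2l1 (Pearson r 0.96), Clcn5 (0.95) and Stxbp3 (0.94), and the farthest was Notch4 (r -0.97). Clcn5, which encodes an endosomal chloride transporter, averaged, in 2i, 1422 in FNV cells and 2137 in miniSOX cells, against 245.5 to 584 in the other groups. Notch4, a Notch receptor, averaged 1.25 and 5.5 in those groups and 402 in NTC cells in 2i. These are descriptions of 8 points that share libraries, chosen among 11133 genes.

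Dppa4 was lower in 2i than in SL in all 4 lines, and the gap was widest in the FNV and miniSOX lines. NTC libraries stood at 870, 844 and 1309 (p31) in 2i and at 1471 and 1531 in SL. For SOX2 the values were 805, 811, 1018 (p21) and 775 (p31) in 2i and 1627 and 1786 in SL. FNV libraries stood at 679, 614, 682 (p21) and 679 (p31) in 2i and at 1632 and 2325 in SL, and miniSOX libraries at 747 and 784 in 2i against 2254 and 2038 in SL. In no line did the media overlap, and the lowest SL library of any line, at 1471, lay above the highest 2i library, at 1309.

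The log2 change of Dppa4 in 2i against SL was -0.68 in NTC (SE 0.16, adjusted p = 0.0056), -1.12 in SOX2 (SE 0.15, adjusted p = 4.4e-05), -1.67 in FNV (SE 0.15, adjusted p = 1.0e-06) and -1.48 in miniSOX cells (SE 0.17, adjusted p = 1.0e-05). Within the first wave it was -0.81, -1.08 and -1.59 in NTC, SOX2 and FNV, and within the second it was -1.48 in miniSOX. Averaging the first-wave replicates ended the call for Dppa4 in NTC alone (-0.62, adjusted p = 0.14). Between media 1 of the 4 members passed in NTC cells (24.6% of all genes did), 2 in SOX2 cells (44.9%), 3 in FNV cells (40.6%) and 2 in miniSOX cells (33.4%). The fall was larger in FNV than in NTC cells (difference -0.99, adjusted p = 0.0033, -0.78 within the first wave), and with the first-wave replicates averaged it fell short (-1.10, adjusted p = 0.053). For miniSOX against NTC the difference was -0.80 (adjusted p = 0.031), and it no longer passed without either NTC library in SL or any 1 of the 4 miniSOX libraries, at -0.73 to -0.88 with adjusted p from 0.059 to 0.11. For FNV against SOX2 it was -0.55 (adjusted p = 0.074). That difference passed without the p31 library of SOX2 (-0.64, adjusted p = 0.028) and without the first FNV library in SL (-0.80, adjusted p = 0.016).

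Between lines in 2i, Dppa4 was lower in FNV than in NTC cells, with a log2 change of -0.61 (SE 0.13, adjusted p = 0.0016), at -0.41 within the first wave and -0.94 within the second. The p31 library of NTC stood at 1309, and without it the change was -0.42 (adjusted p = 0.022). In miniSOX against NTC the log2 change was -0.52 (adjusted p = 0.032), which fell short without that library (-0.27, adjusted p = 0.30) and without either miniSOX library (-0.49, adjusted p = 0.14, and -0.56, adjusted p = 0.094). FNV against SOX2 gave -0.35 (adjusted p = 0.041). That call ended without any of 6 of the 8 libraries, the exceptions being the first FNV library and the p31 library of SOX2, with values of -0.30 to -0.36 and adjusted p from 0.078 to 0.12. In SL no line difference of Dppa4 passed, with log2 changes from -0.09 to 0.38, though FNV against NTC passed without the first FNV library (0.63, adjusted p = 0.021).

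In order of the group mean, Dppa4 ran from miniSOX (2146 ± 153, SD, n = 2), FNV (1978.5 ± 490, n = 2) and SOX2 cells (1706.5 ± 112, n = 2) in SL, which overlapped in turn, to NTC cells in SL (1501 ± 42.4, n = 2), which overlapped no neighbour. Next came NTC (1008 ± 261, n = 3), SOX2 (852 ± 112, n = 4) and miniSOX cells in 2i (765.5 ± 26.2, n = 2), again overlapping in turn. FNV cells in 2i came last at 663.5 ± 33.0 (n = 4), below all of these. These means are not adjusted for the wave.

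**Figure D4:**
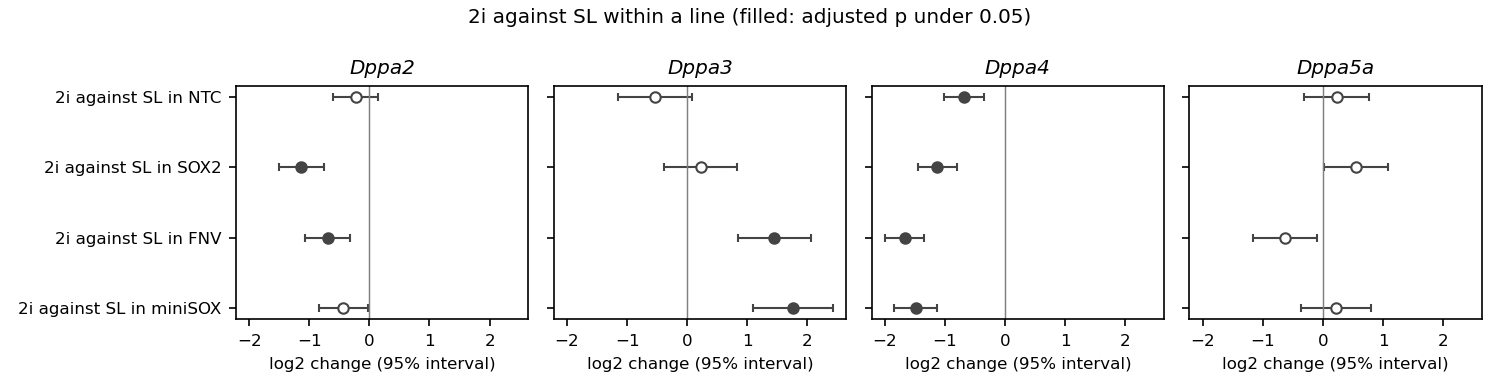
Log2 change of each member in 2i against SL within each line, with 95% intervals and filled points where the adjusted p was under 0.05. Dppa4 lies below 0 in all 4 lines, from -0.68 in NTC to -1.67 in FNV, while Dppa3 lies at 1.45 and 1.76 in the FNV and miniSOX lines.

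Dppa2, the adjacent partner gene, followed Dppa4 only in part. It stood at 702, 665 and 839 (p31) in NTC cells in 2i and at 702 and 809 in SL. SOX2 libraries stood at 488, 485, 677 (p21) and 819 (p31) in 2i, and at 1022 and 1158 in SL. FNV libraries stood at 700, 798, 925 (p21) and 1570 (p31) in 2i and 1186 and 1347 in SL, and miniSOX libraries at 896 and 984 in 2i and 1316 and 1219 in SL. The media overlapped in NTC and, through the p31 library, in FNV cells, but not in SOX2 or miniSOX cells.

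Dppa2 fell in 2i against SL in SOX2 cells (log2 change -1.13, SE 0.17, adjusted p = 0.00012, -1.16 within the first wave) and in FNV cells (-0.69, SE 0.17, adjusted p = 0.0051, -0.76 within the first wave). Without the second FNV library in SL the FNV change was -0.60 (adjusted p = 0.056), and with no wave term it was -0.41 (adjusted p = 0.25). NTC cells had a log2 change of -0.23 (95% interval -0.61 to 0.15), and miniSOX cells one of -0.43 (95% interval -0.84 to -0.03, adjusted p = 0.097). The line difference of SOX2 against NTC in Dppa2 was lower in 2i than in SL by 0.90 on the log2 scale (adjusted p = 0.017), where 18.8% of all genes passed. It fell short without the first NTC library in SL (-0.80, adjusted p = 0.079) and without the second SOX2 library in SL (-0.81, adjusted p = 0.071). For FNV against NTC the difference was -0.46 (adjusted p = 0.18), and without the p31 library of FNV it passed (-0.61, adjusted p = 0.013).

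Of the line comparisons, Dppa2 in 2i was higher in FNV than in SOX2 cells, with a log2 change of 0.66 (SE 0.13, adjusted p = 0.0024), at 0.62 within the first wave and 0.69 within the second (adjusted p = 0.19), and at 0.67 with the first-wave replicates averaged (adjusted p = 0.060). In SL it was higher in FNV than in NTC cells (0.75, SE 0.19, adjusted p = 0.0086). That call ended without the first NTC library (0.64, adjusted p = 0.076) or the second FNV library (0.65, adjusted p = 0.071). Dppa2 did not pass in FNV against NTC in 2i (0.28, adjusted p = 0.15), but without the p21 library of FNV it did (0.39, adjusted p = 0.033). It did not pass in SOX2 against NTC in 2i either (-0.37, adjusted p = 0.069), but without the p31 library of NTC it did (-0.51, adjusted p = 0.040). In SL the Dppa2 change of SOX2 against NTC was 0.53 (adjusted p = 0.075), and within the first wave alone it passed (adjusted p = 0.0069). The miniSOX line showed the weight of the wave term: both of its 2i libraries lay above all 3 NTC libraries, yet the fitted log2 change of Dppa2 was -0.02 (95% interval -0.42 to 0.39), and it was 0.36 with no wave term (adjusted p = 0.40).

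By group mean, Dppa2 was highest in miniSOX (1267.5 ± 68.6, SD, n = 2) and FNV cells (1266.5 ± 114, n = 2) in SL, which overlapped, come from different waves and differed by -0.56 (miniSOX against FNV) once the wave was fitted. SOX2 cells in SL (1090 ± 96.2, n = 2), FNV cells in 2i (998 ± 392, n = 4) and miniSOX cells in 2i (940 ± 62.2, n = 2) came next and overlapped in turn. NTC cells in SL (755.5 ± 75.7, n = 2), NTC cells in 2i (735 ± 91.7, n = 3) and SOX2 cells in 2i (617 ± 162, n = 4) closed the order, and likewise overlapped.

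The balance of the pair can be read as the ratio of the Dppa4 value to the Dppa2 value in each library. In NTC it was 1.24, 1.27 and 1.56 (p31) in 2i and 2.10 and 1.89 in SL. FNV libraries had ratios of 0.97, 0.77, 0.74 (p21) and 0.43 (p31) in 2i and 1.38 and 1.73 in SL, and miniSOX libraries 0.83 and 0.80 in 2i and 1.71 and 1.67 in SL. SOX2 libraries had 1.65, 1.67, 1.5 (p21) and 0.95 (p31) in 2i and 1.59 and 1.54 in SL. All 6 FNV and miniSOX libraries in 2i lay below 1, as did the p31 library of SOX2, and all other libraries lay above it. No test was made of this ratio, which was computed after the values were seen.

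Genes known to depend on DPPA2 and DPPA4 were listed from general knowledge of the pair, and 13 of 15 were measured. In FNV against NTC in 2i, where Dppa4 fell and Dppa2 did not pass, 8 rose and 1 fell (39.7% of all genes passed), with a median log2 change of 0.86. In FNV against NTC in SL, where Dppa2 rose, 9 rose and 0 fell (30% of all genes passed), with a median of 1.33 against -0.04 over all genes. In miniSOX against NTC in 2i 1 rose and 0 fell (median 0.93, 27.7% of all genes passed). In SOX2 against NTC 2 rose in 2i, where 28.7% of all genes passed, and 7 in SL, where 15% did, with 0 lower. Some rises in SL start from very low NTC values. Zfp352 and Tcstv1 were at 0 in both NTC libraries, Tmem92 at 2 and 3, and Tcstv3 at 7 and 4. Of these, Zfp352, Tcstv1 and Tmem92 passed in SOX2 as well as FNV cells. The median of 1.33 for FNV in SL is the value of Zscan4d. In FNV against NTC in 2i, Mael, a piRNA-pathway protein, rose by 0.50 on the log2 scale (adjusted p = 0.012), and Hormad1, a meiotic chromosome-axis protein, by 0.25 (adjusted p = 0.0050). Mael stood at 97 to 103 in NTC, 114 to 163 in FNV and 138 to 193 in SOX2 libraries in 2i. Without the p31 library of NTC the change of Hormad1 was 0.17 (adjusted p = 0.051). Zscan4c, a marker of the 2-cell-like state, stood at 77, 115 and 261 (p31) in NTC and at 250 to 318 in FNV libraries (log2 change 1.08, adjusted p = 0.013), but without the first NTC library it fell short (0.71, adjusted p = 0.076) and within the second wave it was 0.11. The Zscan4 genes are near-identical copies, so reads may be split among them and their count on the list is not of independent genes. Trap1a, a tumour antigen gene on the X chromosome, fell by 0.34 on the log2 scale (adjusted p = 0.046), a call that ended without either first-wave NTC library, either first-wave FNV library or the p31 library of FNV, at -0.24 to -0.35 with adjusted p from 0.075 to 0.17.

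Of the genes listed around the pair on chromosome 16, 5 of 8 were measured. In 2i against SL in FNV cells 0 rose and 1 fell (40.6% of all genes passed), and that gene was Morc1, an ATPase that silences transposons in the male germ line and starts 147.504 kb from Dppa4. It stood at 685, 692, 1014 (p21) and 1298 (p31) in 2i and at 2548 and 2463 in SL (log2 change -1.67, adjusted p = 1.8e-06). Its fall was about the size of that of Dppa4 in the same cells. In NTC cells, where Dppa4 also fell, 0 of the 5 passed in either direction (24.6% of all genes did), and Morc1 stood at 1351, 1244 and 1456 (p31) in 2i and 1609 and 1538 in SL.

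Over the 8 group means, Dppa4 was followed most closely by Tdrd5 (r 0.997), Ube2e1 (0.99) and Gpc1 (0.99), and Arih2 ran opposite (r -0.99). Gpc1, the heparan sulfate proteoglycan glypican-1, averaged 31.75 to 94 in the 2i groups and 314.5 to 517 in the SL groups. Tdrd5, a Tudor-domain protein of the germline piRNA pathway, averaged 24.5 to 39 in 2i and 66 to 106.5 in SL. The genes nearest to Dppa2 were Tubb4b, Hlcs and Mpp7 (r 0.96 each), and the farthest was Snhg20 (r -0.98), none of which was among those named for Dppa4.

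Dppa5a was abundant in every group, and its group means spanned 1.94-fold, in steps near the top of the range. In 2i it stood at 19697, 19697 and 7059 (p31) in NTC, at 19697, 19697, 14818 (p21) and 14818 (p31) in SOX2, at 13688, 13688, 12486 (p21) and 11819 (p31) in FNV, and at 19697 and 18497 in miniSOX libraries. In SL it stood at 13688 and 13688 in NTC, 16422 and 12486 in SOX2, 19697 and 30387 in FNV, and 16422 and 16422 in miniSOX libraries. The p31 library of NTC was far below every other library. Leaving it aside, FNV cells were lowest in 2i and highest in SL.

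For Dppa5a the FNV line also differed from the SOX2 line in how its media compared. The FNV to SOX2 difference in 2i minus that in SL was -1.18 (SE 0.33, adjusted p = 0.021, -1.30 within the first wave). It fell short without the second FNV library in SL (-0.87, adjusted p = 0.13), at 30387 the highest of all, and without the second SOX2 library in SL (-0.98, adjusted p = 0.10). The matching difference for FNV against NTC was -0.86 (adjusted p = 0.081), and it passed without the p31 library of NTC (-1.30, adjusted p = 0.00068) and without the first FNV library in SL (-1.17, adjusted p = 0.036). Within the FNV line the log2 change of Dppa5a in 2i against SL was -0.63 (adjusted p = 0.056). Without the p21 library of FNV (-0.69, adjusted p = 0.039) or the first FNV library in SL (-0.94, adjusted p = 0.025) it passed. In NTC it was 0.23 (adjusted p = 0.58), and 0.53 without the p31 library (adjusted p = 0.025). In SOX2 cells it was 0.55 (95% interval 0.02 to 1.08, adjusted p = 0.086) and in miniSOX cells 0.22 (95% interval -0.36 to 0.80).

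Line comparisons of Dppa5a that passed rested on few libraries. FNV was above NTC in SL by a log2 change of 0.84 (SE 0.27, adjusted p = 0.030), but the call ended without either NTC library (0.84, adjusted p = 0.11 and 0.10) and without the second FNV library (0.53, adjusted p = 0.27). FNV against SOX2 in SL missed the threshold at 0.77 (adjusted p = 0.055) and passed without the first FNV library (1.09, adjusted p = 0.031). In 2i, miniSOX was above NTC (0.84, adjusted p = 0.032, 1.43 within the second wave), although the 2 miniSOX libraries did not exceed the first-wave NTC libraries. Without the p31 library of NTC the change was 0.25 (adjusted p = 0.41), and without either miniSOX library it fell short as well (0.80, adjusted p = 0.14, and 0.89, adjusted p = 0.098). The change of miniSOX against FNV in 2i was 0.86 (adjusted p = 0.049, 0.65 within the second wave), and the call ended without any 1 of 5 libraries, namely both miniSOX libraries and the first, second and p31 libraries of FNV, at 0.81 to 0.95 with adjusted p from 0.057 to 0.24. For FNV against NTC in 2i the waves disagreed: the log2 change was -0.53 within the first wave (adjusted p = 0.0504), 0.78 within the second (adjusted p = 0.0043) and -0.02 in the fit of both. The second-wave value rests on the single NTC library p31, at 7059, without which the change in the fit of both waves was -0.47 (adjusted p = 0.025). For SOX2 against NTC in 2i the values were 0.00 within the first wave, 1.07 within the second (adjusted p = 0.0031), again against that library alone, and 0.39 over both (adjusted p = 0.19).

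Group means of Dppa5a ran from 25042 ± 7559 (SD, n = 2) in FNV cells in SL to 12920.2 ± 927 (n = 4) in FNV cells in 2i. Between them lay miniSOX (19097 ± 849, n = 2) and SOX2 cells in 2i (17257.5 ± 2817, n = 4), miniSOX cells in SL (16422 in both libraries), NTC cells in 2i (15484 ± 7297, n = 3), SOX2 cells in SL (14454 ± 2783, n = 2) and NTC cells in SL (13688 in both libraries). Every neighbour in this order overlapped or shared a value with the next. An equal value in 2 libraries means the same run of 10 ranks, not the absence of a difference.

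KH-domain relatives and chromosome 9 neighbours of Dppa5a formed a list of 10, of which 9 were measured. In FNV against NTC in SL 3 rose and 1 fell (30% of all genes passed), with a median log2 change of 0.48. Cgas, the cytosolic DNA sensor that starts 75.06 kb from Dppa5a, rose from 21 and 26 to 53 and 54 (log2 change 1.16, adjusted p = 0.0017). Mto1, a mitochondrial tRNA-modifying enzyme, rose by 0.52 on the log2 scale (adjusted p = 0.022), and Ddx43, a KH-domain helicase, by 0.48 (adjusted p = 0.039). The Mto1 call ended without either NTC library or the second FNV library (0.40 to 0.55, adjusted p from 0.063 to 0.16), and that of Ddx43 without either NTC library or the first FNV library (0.35 to 0.56, adjusted p from 0.078 to 0.24). Khdc1a, a KH-domain relative, is listed at 90 and 73 in NTC and at 0 and 41 in FNV libraries, and its log2 change of -3.66 (adjusted p = 0.018) rests on the listed 0. Without that first FNV library it was -0.97 (adjusted p = 0.15), and without either NTC library it was -3.51 (adjusted p = 0.089) or -3.81 (adjusted p = 0.063).

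The genes closest to Dppa5a over the 8 group means were Ndufb2 (r 0.96), Psph (0.95) and Psat1 (0.94), and the farthest was Usp19 (r -0.93). Psph and Psat1 encode enzymes of serine synthesis. Psat1 averaged 8581.5 in FNV cells in SL and 4752.5 to 6806.5 elsewhere, and Psph 1363 and 647 to 1000.5. None of the 12 genes named as closest to a member was named for another.

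The wider pluripotency network gives the setting for these differences, and all 18 listed genes were measured. In FNV against NTC in 2i, 3 rose and 8 fell (39.7% of all genes passed), with a median log2 change of -0.11. In SL 9 rose and 0 fell (30% of all genes passed), with a median of 0.56. Klf2, a naive-state factor, fell in 2i by 1.61 on the log2 scale (adjusted p = 6.2e-06), Esrrb, a nuclear receptor of the naive network, by 0.78 (adjusted p = 4.5e-05) and Sall4, a zinc-finger factor, by 0.82 (adjusted p = 0.0026). Klf4 rose by 1.01 on the log2 scale (adjusted p = 0.00088). In 2i against SL in NTC cells 10 rose and 2 fell (24.6% of all genes passed), with a median of 0.76. Nanog was among those that rose in 2i, by 1.17 on the log2 scale in NTC, 2.01 in SOX2 and 2.14 in miniSOX cells, but had a log2 change of 0.04 in FNV cells (adjusted p = 0.83). It stood at 19699 and 18500 in FNV libraries in SL and at 8025 and 8025 in NTC. Dppa3 was among the genes that differed between these media in FNV and miniSOX cells, and Dppa4 went in the direction opposite to most of the network in NTC cells.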

How the data were processed

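RNA was measured by poly(A)-selected sequencing in 21 libraries of 8 groups. Per the submitters' processing notes, the authors used Bowtie2 2.0, RSEM and mm10. The normalization software, its filter and the strand setting are not given in the sources used here. The deposited table holds whole numbers that the authors had normalized, so each value was treated as a score and not as a count, and no count model was fitted. Totals per library ran from 14044316 to 14047262, so depth is unknown and no counting interval can be given. Every value column was tied to a sample or, for the p21 and p31 libraries, to a group, and 0 columns were left out.

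Genes that reached 1 in 2 or more libraries (16443) were fitted as log2(value + 1) with limma 3.58.1 in R 4.3.3 (intensity trend, robust moderation). The model held the 8 groups and the wave, and was fitted to all 21 libraries. Fold changes are on the log2(value + 1) scale, which understates those of low genes. Tests were two-sided, p-values were Benjamini-Hochberg adjusted over all genes in each of 22 comparisons, and an adjusted p under 0.05 is called passed. The scripts were tested on simulated data. Positions and transcripts came from GENCODE M21, and copies were aligned with Biopython 1.88. Figures used matplotlib 3.10.9.

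Genes named are the 4 members, the 3 genes with the highest r to each over group means (mean value of at least 50, predicted genes left out) and the lowest where r was under -0.9, and up to 4 per list, passing genes first, in list order. From 1 list, 1 gene is not reported here. The members and lists were chosen with earlier results of these data known. The lists share genes, so their counts are not independent. Nanog, Klf2, Prdm14 and Tcl1 are on both the germ cell and the pluripotency list. Nanog and Gdf3 are on both the pluripotency list and that of the Dppa3 neighbours. Dnmt3b is on both the DNA methylation list and the formative and primed markers. Alternatives were other pseudocounts, filters and centring, no wave term, each wave alone, the compared groups alone, a replicate block, averaged first-wave replicates, no trend, and each library left out.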

Additional observations from a re-analysis of the deposited data

Results flagged for a closer look

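Of the 8 groups, 2 held the 4 libraries needed to look for one far from the others. Over the 4 members this gave 8 looks, of which 2, both of Dppa4, found such a library and 6 did not. In FNV cells in 2i the second library stood at 614, while the others lay between 679 and 682, so the gap took 0.956 of the group's range. In SOX2 cells in 2i the p21 library stood at 1018 beside 775 to 811, a share of 0.852. Chance flags about 1 in 20 groups.

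The line difference depended on the medium, by the test of that difference, in 8 of 24 tests of the members, where 11.9% to 25.8% of all genes passed by comparison. For Dppa3 the line difference in 2i minus that in SL was 1.99 in FNV against NTC (adjusted p = 0.0018), 2.30 in miniSOX against NTC (adjusted p = 0.0028), 1.22 in FNV against SOX2 (adjusted p = 0.034) and 1.54 in miniSOX against SOX2 (adjusted p = 0.029). For Dppa4 it was -0.99 in FNV against NTC (adjusted p = 0.0033) and -0.80 in miniSOX against NTC (adjusted p = 0.031). For Dppa2 it was -0.90 in SOX2 against NTC (adjusted p = 0.017), and for Dppa5a it was -1.18 in FNV against SOX2 (adjusted p = 0.021).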

How the results depend on the processing

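Of the members' 30 calls, 10 held in every alternative that could be fitted and 20 were lost in at least 1. Of the 58 results not called, 26 were called in at least 1 alternative. Dppa5a in FNV against NTC in 2i reversed in the second wave alone (0.78, adjusted p = 0.0043), where the NTC side is the single p31 library, and the cause was not tested. Unknown depth leaves counting error unmeasured. Replicate numbers did not pair samples: over 28 pairs of groups the correlation of same-numbered deviations ran from -0.0917 to 0.0858, with 0 pairs over 0.1. With the replicate block, 1042 to 7111 genes changed per comparison, each within 1.5 times of the main count, and 2 member calls ended: Dppa3 in SOX2 against NTC in SL (-0.99, adjusted p = 0.055) and Dppa5a in miniSOX against FNV in 2i (0.86, adjusted p = 0.065). Of the other named genes, Trap1a in FNV against NTC in 2i was lost there (adjusted p = 0.054).

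Counts of changed genes moved by over 1.5 times as follows. With no wave term, in 2i they were 2947 (SOX2 against NTC), 2695 (FNV against SOX2), 1414 (miniSOX against SOX2) and 276 (miniSOX against FNV). In SL they were 1157 (SOX2 against NTC), 3210 (FNV against NTC) and 1944 (FNV against SOX2), and between media in NTC 2680. For the differences between media they were 1421 (SOX2 against NTC), 2722 (FNV against NTC), 1191 (miniSOX against NTC), 1799 (FNV against SOX2), 875 (miniSOX against SOX2) and 1175 (miniSOX against FNV).

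With the first-wave replicates averaged, the 2i counts were 1711 (SOX2 against NTC), 3992 (FNV against NTC), 2766 (miniSOX against NTC), 1550 (FNV against SOX2), 917 (miniSOX against SOX2) and 72 (miniSOX against FNV). The SL counts were 185, 1000, 807, 334, 968 and 391 in the same order. Between media they were 789 in NTC, 3366 in SOX2 and 3184 in FNV, and for the differences between media 287, 1067, 408, 326, 324 and 340 in the same order of lines.

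In the first wave alone 4546 genes changed in SOX2 against NTC and 5469 in FNV against SOX2 in SL, and the differences between media gave 4966 and 5601. In the second wave alone the 2i counts, in the order above, were 1529, 2911, 2837, 837, 1079 and 107. With only the compared groups, miniSOX against NTC gave 6947 in 2i, 6564 in SL and 5299 for the difference, miniSOX against FNV gave 91 in 2i and 4845 in SL, and the difference for miniSOX against SOX2 gave 3881.

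Leaving out 1 library at a time gave these ranges, with the main count after each. Where this left a group with 1 library, that library is assumed to vary like the other groups. In 2i they were 2712 to 4185 for miniSOX against NTC (4561), 870 to 2234 for miniSOX against SOX2 (2449) and 127 to 2994 for miniSOX against FNV (1260). In SL they were 1199 to 1473 for SOX2 against NTC (2464), 3033 to 3592 for FNV against NTC (4931), 1876 to 2223 for miniSOX against NTC (3221), 1791 to 2561 for FNV against SOX2 (3513), 2119 to 2745 for miniSOX against SOX2 (3547) and 1240 to 1696 for miniSOX against FNV (2499). Between media in NTC the range was 2106 to 4713 (4053). For the differences they were 1946 to 3490 (SOX2 against NTC, 3095), 1270 to 2765 (miniSOX against NTC, 2248), 2096 to 4510 (FNV against SOX2, 3416), 1012 to 2175 (miniSOX against SOX2, 1963) and 1136 to 2610 (miniSOX against FNV, 1960).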
